A study of Homo sapiens with 16 samples.

Results

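The genes described here are 8 nuclear genes for carriers of the mitochondrial membranes: the porins VDAC1, VDAC2 and VDAC3, the phosphate carrier SLC25A3, the adenine nucleotide translocases SLC25A4, SLC25A5 and SLC25A6, and the translocator protein TSPO. They were chosen by name as the metabolite pores and adenine nucleotide carriers of mitochondria together with TSPO, a partner of VDAC. They are 8 of the 60107 genes that each library lists, and all 8 passed the filter on low counts in every comparison.

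Cytoplasmic RNA was taken from U2OS-TR cells, human osteosarcoma cells with a stably expressed tetracycline repressor, and converted to QuantSeq REV libraries, in which each tag starts at the 3′ end of a polyadenylated mRNA. The transgene line is 1 clone of these cells with a stably integrated ΔN-RNMT gene under tetracycline operator control. ΔN-RNMT is a form of the cap methyltransferase RNMT that lacks the N-terminal nuclear localization sequences, carries an export signal and cannot methylate caps. The study used it to ask which mRNAs depend on cap methylation in the cytoplasm. Its 2 groups were 5 uninduced libraries (0 µg/ml doxycycline) and 5 induced libraries (1 µg/ml doxycycline). The parental U2OS-TR cells, which have the repressor but no transgene, gave 3 libraries without doxycycline and 3 with 1 µg/ml, and served as the control for doxycycline itself. Doxycycline was added 48 h after the cells were split, and cells were collected 24 h later. The treatment note recorded with the libraries lists doxycycline for every one of them, whereas the titles and the design text give it to only some of them, and the titles were followed. The lines also differed in sequencing instrument and read length, so line and instrument cannot be told apart.

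VDAC proteins are barrel-shaped porins of the outer mitochondrial membrane through which ATP, ADP, phosphate, respiratory substrates and calcium pass. In the inner membrane the adenine nucleotide translocases exchange matrix ATP for cytosolic ADP, and the phosphate carrier brings in the phosphate that ATP synthase joins to ADP. TSPO is an outer membrane protein that binds cholesterol and porphyrins and is found with VDAC. In the exchange of adenine nucleotides SLC25A4 is the form of heart and skeletal muscle, SLC25A5 that of dividing cells, and SLC25A6 is expressed in most tissues.

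The study's title sets mRNAs with a 5′ terminal oligopyrimidine (TOP) tract apart, a run of C and T that begins with a C at the first base of the mRNA. The annotated starts of 6 of the genes are therefore shown, from RefSeq on GRCh38.p14, with 10 bases before the start and 20 from it, and with capitals for a run of C or T that begins with a C at the first transcribed base and is at least 4 bases long.
VDAC1: cccgtgccccgactcacgcaggtcctcccg
VDAC2: cccaaaaagcCTCTCaggcacacaacccag
SLC25A3: gacgtccggcCTCTgtgagccgcaaccttt
SLC25A4: gccaggcggcggccccctagcgtcgcgcag
SLC25A5: cttcgctccgCCCCgcagcgccggagtcaa
SLC25A6: gctgctccgtCCTTTCggtccaggcggcgg

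These windows lie at chr5:134004956-134004985 on the reverse strand (VDAC1), chr10:75210160-75210189 on the forward strand (VDAC2), chr12:98593676-98593705 on the forward strand (SLC25A3), chr4:185143256-185143285 on the forward strand (SLC25A4), chrX:119468434-119468463 on the forward strand (SLC25A5) and chrX:1392094-1392123 on the reverse strand (SLC25A6). At the starts shown, SLC25A6 has a run of 6 pyrimidines and VDAC2 a run of 5, whereas SLC25A3 and SLC25A5 each have 4. VDAC1 and SLC25A4 have no such run there. RefSeq lists 4 starts for VDAC1 and 2 for VDAC2, and their other starts are not shown. A C at the first base with at least 4 further pyrimidines was found at 4.07% of the 35116 starts in the table, and a run of at least 4 in all was found at 5.45%. Annotated starts need not be the ones these cells use, and tags at the 3′ end do not show them. The RefSeq start lies inside the gene as GENCODE 44 annotates it by 95 bases for SLC25A3, 22 for SLC25A5 and 16 for VDAC2.

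On GRCh38 with GENCODE 44, VDAC1 spans chr5:133971871-134004975 (reverse strand, 9 exons), VDAC2 chr10:75210154-75231448 (forward, 10 exons) and VDAC3 chr8:42391624-42405937 (forward, 10 exons). SLC25A3 spans chr12:98593591-98606379 (forward, 8 exons), SLC25A4 chr4:185143266-185150382 (forward, 4 exons) and TSPO chr22:43151547-43163242 (forward, 4 exons). SLC25A5 (chrX:119468422-119471396, forward, 4 exons) and SLC25A6 (chrX:1386152-1392113, reverse, 4 exons) are both on the X chromosome, the latter in the pseudoautosomal region. The exons range in GC content from 41.3% in VDAC3 to 60.4% in SLC25A6 and 64.1% in TSPO. GENCODE lists 13 pseudogenes for VDAC1, 9 for SLC25A5 and 6 for SLC25A6 but none for SLC25A4 and TSPO, and tags that aligned equally well to a copy were left out of the counts. SLC25A5 overlaps SLC25A5-AS1 on the opposite strand, which held 1 to 73 tags per library, and VDAC1 overlaps a lncRNA with 0 to 41.

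RNMT, the gene from which the transgene was made, was examined first as a check of the labels. Its level was 74.3 ± 22.4 in uninduced and 346 ± 78.0 in induced libraries, in scaled counts per mega-count (CPM; SD, n = 5 each), with every induced library above every uninduced one (log2 fold change 2.22, adjusted P = 0.00805 in the edgeR quasi-likelihood fit, Benjamini-Hochberg adjusted). Levels are in CPM scaled with edgeR's TMM factors within each line and not divided by gene length, because each mRNA gives its tags at 1 end. Depth ran from 12527183 to 23251834 gene counts per library of the transgene line, and from 1473286 to 3214808 per parental library. The lines also differed in composition. Tags that fell on no counted gene feature numbered 0.0744 to 0.1061 per gene count in the transgene line and 1.1097 to 1.4972 in the parental line. Mitochondrial tags made up 0.854 to 1.516% and 1.759 to 9.382%. The part of this difference in the comparisons between lines was not tested. Mesenchymal markers summed to between 682 and 1818 CPM per library, epithelial markers to between 12.6 and 70.7, and blood markers to at most 1.84, while COL1A2 and TWIST1 were at or near 0 in every library. Of the mesenchymal markers, 2 of 6 tested were higher in induced cells, where 20% of all tested genes were. These were VIM (from 165 ± 98.4 to 449 ± 146 CPM, SD, n = 5 each, log2 fold change 1.44) and RUNX2 (1.16), each with overlapping groups. Of the nuclear-retained RNAs, 1 of 4 tested was lower, where 19.8% of all tested genes were. It was NEAT1 (-0.44), with overlapping groups. In parental cells MALAT1 was at 311 to 1310 CPM without doxycycline and 121 to 129 with it. The part of these in the results below was not tested. The GC content of the counted tags' genes (mean exon GC, weighted by counts) moved with induction: it was 49.4 to 50.7% in uninduced libraries and 48.6 to 49.5% in induced ones. Its part in the results below was not tested beyond the GC offsets given beside them.

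**Figure D1:**
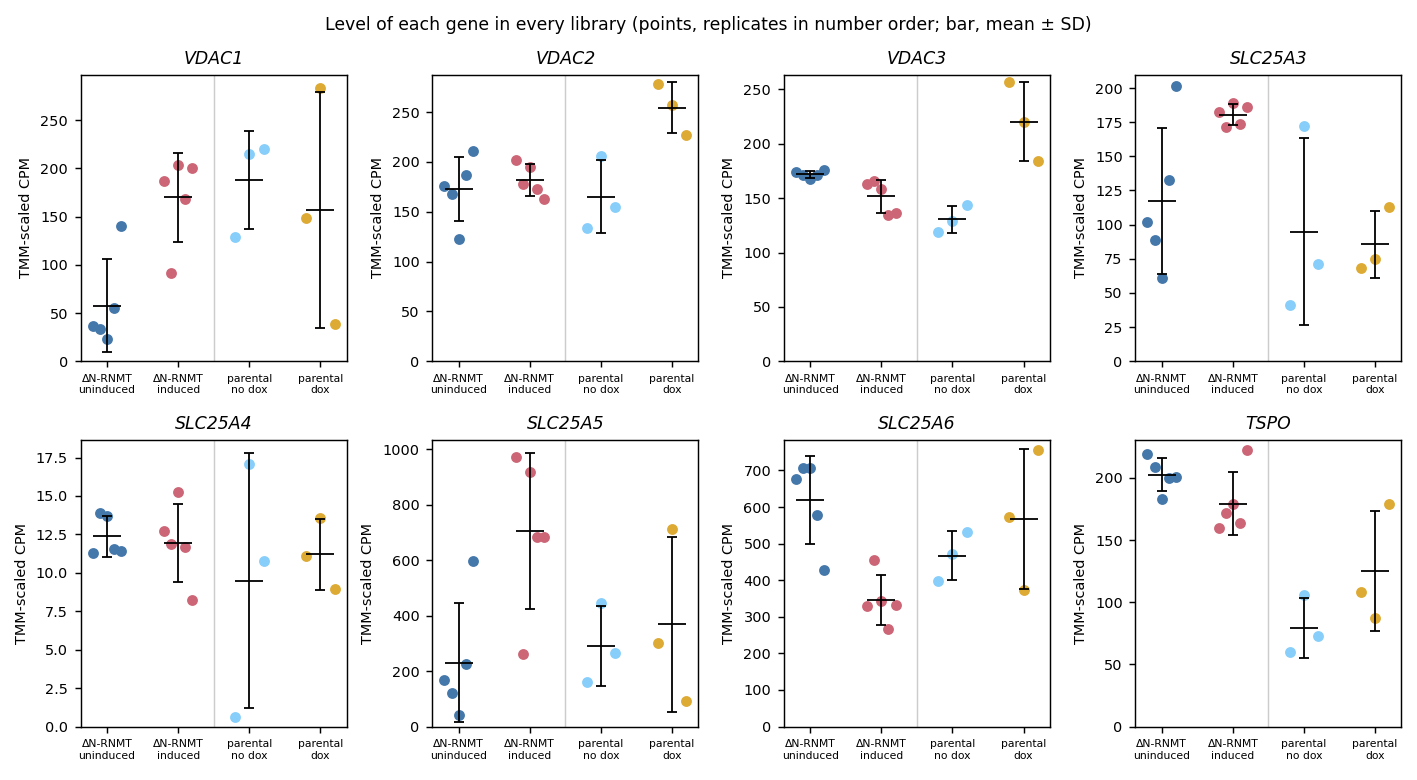
Level of each gene (vertical axes, TMM-scaled CPM, each starting at 0) in the 16 libraries, grouped as ΔN-RNMT uninduced (n = 5), ΔN-RNMT induced (n = 5), parental without doxycycline (n = 3) and parental with doxycycline (n = 3). Points are libraries in order of replicate number, and bars are the mean ± SD. SLC25A5 runs from 41.0 to 595 CPM in uninduced and from 262 to 973 in induced libraries, whereas uninduced VDAC3 stays between 168 and 176. Scaling was done within each line, so levels are compared within a line only.

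Induction of ΔN-RNMT was accompanied by opposite changes within the family of adenine nucleotide translocases. SLC25A5, the form of dividing cells, and VDAC1, the most abundant porin of many tissues, were 3.06-fold and 2.94-fold higher in induced cells, and SLC25A6 was 1.79-fold lower. The other 5 genes did not pass the test. With 1 surrogate variable in the fit, a covariate estimated from the counts, none of the 8 passed and RNMT was the only gene that did. In that fit VDAC1, SLC25A5 and SLC25A6 had adjusted P values of 0.0654, 0.0704 and 0.0692 by edgeR. In all, 3 of the 8 genes passed at an adjusted P below 0.05, 2 higher and 1 lower, where 39.8% of the 13038 genes tested passed, 20% higher and 19.8% lower. Of the calls over all genes 50.2% were higher, a share that became 74.2% with total counts alone and 32.2% with GC offsets. The 8 genes had a median log2 fold change of 0.01, beside 0.04 over all genes tested.

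Among the porins, VDAC1 was at 36.3, 33.5, 23.3, 55.2 and 141 CPM in uninduced replicates 1 to 5 and at 187, 91.3, 203, 168 and 201 CPM in induced replicates 1 to 5. Uninduced replicate 5 stood apart from the other 4 of its group, and induced replicate 2 was the only induced library below it, so the groups overlapped and the induced library was higher in 24 of 25 pairs. The mean went from 57.8 ± 47.7 CPM uninduced to 170 ± 46.1 CPM induced (SD, n = 5 each), giving a log2 fold change of 1.56 with standard error 0.45 (adjusted P = 0.0226 in the edgeR quasi-likelihood fit, Benjamini-Hochberg adjusted). The call was lost on leaving out uninduced replicate 1 or 2 or induced replicate 1, 3 or 4 (adjusted P by edgeR between 0.0513 and 0.0556), and the log2 fold change was 2.18 without uninduced replicate 5. With offsets for GC content VDAC1 still passed, at 1.46.

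VDAC2, the porin that binds and holds back the apoptosis effector BAK1, ranged from 123 to 211 CPM in uninduced and from 163 to 202 in induced libraries. The induced range lay inside the uninduced one. Its log2 fold change was 0.08 (95% interval -0.27 to 0.43), and it turned to -0.26 with GC offsets, neither passing the test.

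VDAC3, the least conductive of the porins, was at 174, 172, 168, 171 and 176 CPM in uninduced replicates 1 to 5 and at 163, 166, 158, 135 and 136 CPM in induced replicates 1 to 5. Here every induced library was below every uninduced one, which 7.3% of all tested genes matched in either direction (3.08% higher and 4.22% lower). The difference was nevertheless small, from 172 ± 3.07 to 152 ± 15.1 CPM (SD, n = 5 each), and did not pass the test (log2 fold change -0.18, 95% interval -0.45 to 0.09, adjusted P = 0.244 by edgeR with Benjamini-Hochberg adjustment). VDAC3 has the lowest exon GC content of the 8 genes, and its value depended on how that was treated. With GC offsets the log2 fold change was -0.63 and passed (adjusted P = 0.0213 by edgeR), and with scaling by total counts alone it was 0.05, settings that moved the median of all genes from 0.04 to -0.16 and to 0.28.

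SLC25A5, one of the translocases, had the widest spread of the 8 genes in the transgene line. Its levels were 169, 121, 41.0, 224 and 595 CPM in uninduced replicates 1 to 5 and 973, 262, 918, 684 and 683 CPM in induced replicates 1 to 5. As for VDAC1, uninduced replicate 5 was the highest of its group, induced replicate 2 the lowest of the other, and the induced library was higher in 24 of 25 pairs. The means were 230 ± 215 and 704 ± 280 CPM (SD, n = 5 each), giving a log2 fold change of 1.61 with standard error 0.58 (adjusted P = 0.0459 in the edgeR quasi-likelihood fit, Benjamini-Hochberg adjusted). This call was close to the threshold. It held in 2 of the 10 fits that left out 1 library, those without uninduced replicate 5 (log2 fold change 2.33) and without induced replicate 2, and it was lost without any other library (adjusted P by edgeR between 0.0578 and 0.101) and with GC offsets (1.48, adjusted P = 0.0502).

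SLC25A6 went the other way. It was at 677, 705, 707, 578 and 428 CPM in uninduced replicates 1 to 5 and at 330, 455, 343, 267 and 332 CPM in induced replicates 1 to 5. The same libraries met in the middle: uninduced replicate 5 was the lowest of its group and induced replicate 2 the highest of the other, and the induced library was higher in 1 of 25 pairs. SLC25A6 fell from 619 ± 119 to 345 ± 68.0 CPM (SD, n = 5 each; log2 fold change -0.84, standard error 0.19, adjusted P = 0.0175 in the edgeR quasi-likelihood fit, Benjamini-Hochberg adjusted). It passed in each of the 10 fits that left out 1 library, between -0.96 and -0.76, and with GC offsets at -0.60.

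SLC25A4, the form of heart and skeletal muscle, was low in these cells, between 11.3 and 13.9 CPM in uninduced and between 8.25 and 15.3 CPM in induced libraries. The groups overlapped on both sides. Its log2 fold change was -0.05 with a 95% interval from -0.43 to 0.33.

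SLC25A3, the phosphate carrier, was at 102, 88.8, 61.3, 133 and 201 CPM in uninduced replicates 1 to 5 and at 183, 171, 189, 174 and 186 CPM in induced replicates 1 to 5. The induced libraries lay close together near the top of the uninduced range, with a coefficient of variation of 4.32% against 45.6%. The means were 117 ± 53.5 and 181 ± 7.79 CPM (SD, n = 5 each), and the log2 fold change of 0.62 missed the threshold (standard error 0.26, adjusted P = 0.0749 by edgeR with Benjamini-Hochberg adjustment). Without uninduced replicate 5 it was 0.89 and passed (adjusted P = 0.00272 by edgeR), as it did with total counts alone at 0.83.

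TSPO, which is rich in GC, was at 183 to 220 CPM in uninduced and 160 to 222 CPM in induced libraries. Of the induced libraries, 4 were below every uninduced one and replicate 5 was above all of them. The log2 fold change was -0.17 (95% interval -0.47 to 0.13), with 0.14 under GC offsets and 0.06 under total counts alone. None of the 3 passed.

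**Figure D2:**
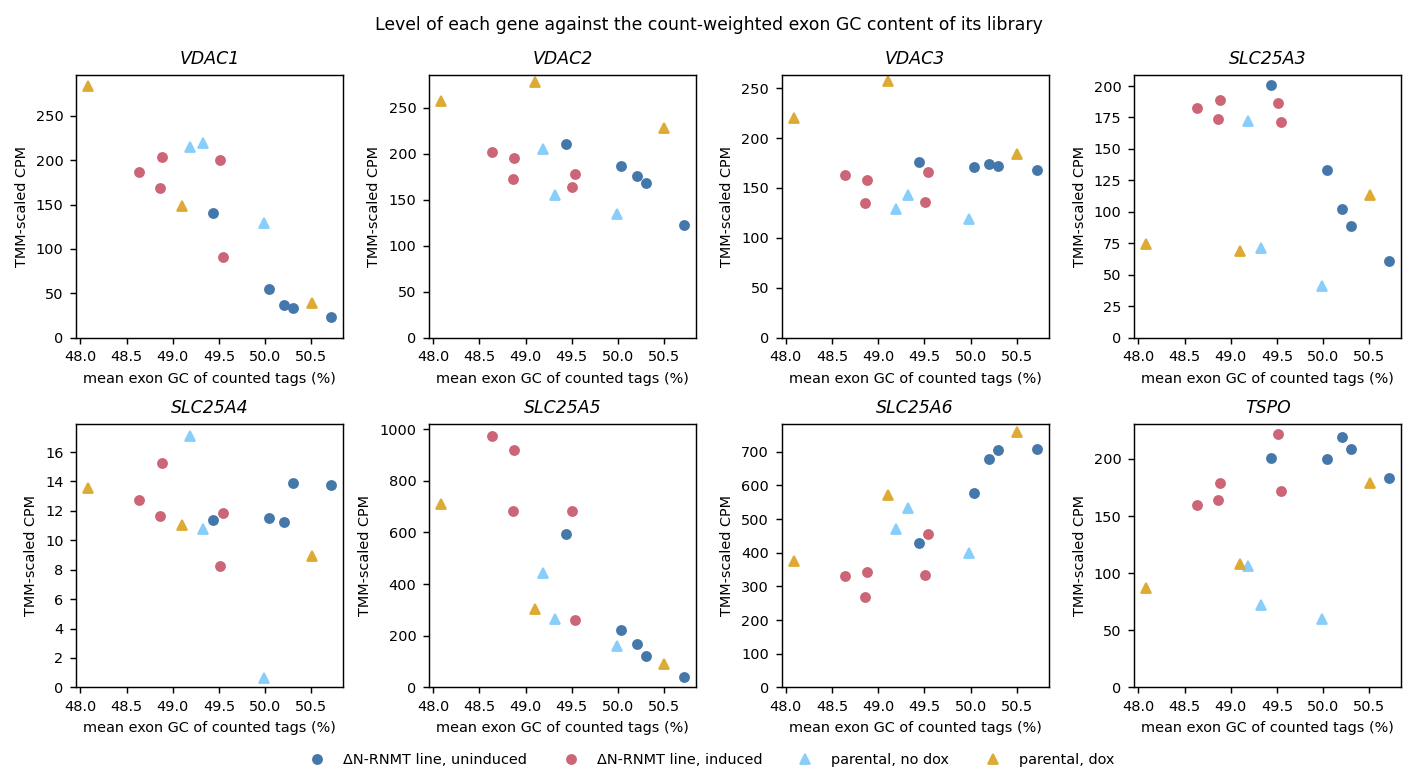
Level of each gene (vertical axes, TMM-scaled CPM) against the count-weighted mean exon GC content of its library (horizontal axes, %), with circles for the transgene line and triangles for the parental line. In the transgene line the 4 libraries of 50.0% or more are the lowest for VDAC1 and SLC25A5 and the highest for SLC25A6. Uninduced replicate 5 (49.4%) and induced replicate 2 (49.5%) are the libraries by which the groups overlap in both GC content and level.

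Within the uninduced group the order of the 5 libraries by GC content was also their order by level for 5 of the 8 genes. The share of all tested genes with such an order was not computed. The GC content was weighted by these same counts, so the order is given as a description and not as a trait of these genes. Uninduced replicates 3, 2, 1, 4 and 5 had 50.7, 50.3, 50.2, 50.0 and 49.4% GC, and in that order VDAC1, VDAC2, SLC25A3 and SLC25A5 went from lowest to highest and SLC25A6 from highest to lowest. The induced libraries did not keep the full order, since induced replicates 2 and 5 both had 49.5% GC and held 91.3 and 201 CPM of VDAC1. Induced replicate 2 had the highest GC content of its group. It was the lowest induced library for VDAC1, SLC25A3 and SLC25A5 and the highest for SLC25A6. In the parental line dox replicate 2, at 48.1% GC, held the most VDAC1 (284 CPM) and dox replicate 3, at 50.5%, the least (39.1 CPM). The libraries between them did not keep the order. Dox replicate 1, at 49.1%, held 149 CPM, and no-dox replicates 2 and 3, at 49.2 and 49.3%, held 215 and 220 CPM.

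Within a family, the share of a gene in the family's tags does not depend on how libraries are scaled. It can still depend on GC content and on tags left out because they aligned to copies, and their part was not tested. Of the VDAC tags, VDAC1 made up 13.2 ± 7.86% in uninduced and 33.4 ± 7.30% in induced libraries (SD, n = 5 each). VDAC2 had 43.0 ± 3.11% and 36.3 ± 2.98%, and VDAC3 had 43.9 ± 7.33% and 30.4 ± 4.46%. The 3 porins thus had nearly equal mean shares in induced cells, whereas VDAC1 was the smallest in uninduced ones. In single induced libraries the VDAC1 share ran from 21.0% in replicate 2 to 40.1% in replicate 5. The summed level of the 3 porins was 403 ± 78.6 and 504 ± 51.5 CPM (SD, n = 5 each), ranges that overlapped.

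Of the translocase tags, SLC25A5 made up 24.9 ± 19.9% in uninduced and 63.9 ± 15.9% in induced libraries, and SLC25A6 made up 73.6 ± 19.7% and 34.9 ± 15.6% (SD, n = 5 each). SLC25A6 thus held most of the counted translocase tags in 4 of 5 uninduced libraries and SLC25A5 in 4 of 5 induced ones. The ratio of SLC25A5 to SLC25A6 tags was 0.249, 0.171, 0.0580, 0.387 and 1.39 in uninduced replicates 1 to 5 and 2.95, 0.575, 2.68, 2.56 and 2.06 in induced replicates 1 to 5. Uninduced replicate 5 and induced replicate 2 were again the exceptions in their groups. SLC25A4 stayed a minor form, at 1.46 ± 0.277% and 1.16 ± 0.310% (SD, n = 5 each), and the family sum was 862 ± 103 and 1061 ± 241 CPM. These shares are descriptions, given without a test.

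**Figure D3:**
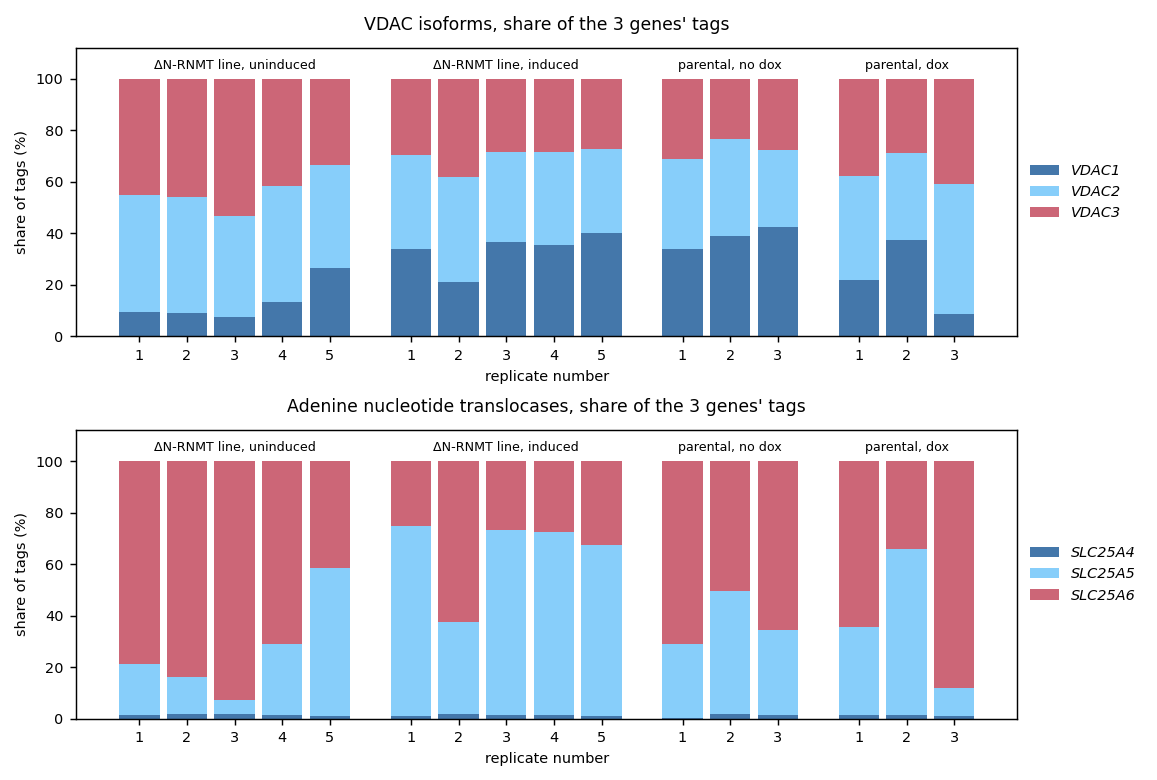
Share of each gene in the summed tags of its family (vertical axes, %, stacked to 100) in every library (horizontal axes, replicate number), with the 3 VDAC genes above and the 3 translocases below. In the lower panel SLC25A5 takes 66.7 to 73.9% in induced replicates 1, 3, 4 and 5 and 35.9% in induced replicate 2, against 5.38 to 27.5% in uninduced replicates 1 to 4 and 57.5% in uninduced replicate 5. The parental libraries spread widely with or without doxycycline.

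In parental cells, which have no transgene, doxycycline gave no call among the 8 genes, and the treated and untreated libraries overlapped for each of the 3 genes that passed in the transgene line. No gene of the 9124 tested passed (0%) by edgeR, where 267 had an unadjusted P below 0.05 (2.93%), and DESeq2's Wald test called 1. VDAC1 was at 129, 215 and 220 CPM without doxycycline and 149, 284 and 39.1 with it (log2 fold change -0.25, 95% interval -1.56 to 1.05). SLC25A5 was at 161, 444 and 266 CPM without doxycycline and 302, 711 and 92.1 with it (log2 fold change 0.35, 95% interval -1.09 to 1.78). Dox replicate 3, the library of highest GC content, was the lowest of the 6 for both genes, and dox replicate 2 the highest. SLC25A6 was at 398, 471 and 532 CPM without doxycycline and 571, 374 and 757 with it (log2 fold change 0.28, 95% interval -0.62 to 1.18). The interval for SLC25A5 included the 1.61 of the transgene line, and those for VDAC1 and SLC25A6 ended short of that line's 1.56 and -0.84.

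VDAC2 and VDAC3 were the 2 genes whose parental groups did not overlap, both higher with doxycycline, as were 4.87% of all tested genes (4.66% were lower without overlap, 9.52% in either direction). VDAC2 was at 134, 205 and 155 CPM without doxycycline and 278, 257 and 227 with it (log2 fold change 0.63, 95% interval -0.18 to 1.44). VDAC3 was at 119, 129 and 143 CPM without doxycycline and 257, 221 and 184 with it (log2 fold change 0.76, 95% interval -0.03 to 1.55). Neither passed the test (adjusted P = 0.997 for both by edgeR with Benjamini-Hochberg adjustment). TSPO had 59.6 to 106 CPM without doxycycline and 87.3 to 179 with it, and SLC25A3 had 41.2 to 172 and 68.6 to 113. SLC25A4 was counted 1 to 36 times per parental library, so its values there, from 0.615 to 17.1 CPM, rest on few tags.

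In parental cells the mean share moved little for SLC25A5 and fell for VDAC1. SLC25A5 made up 36.4 ± 9.92% of translocase tags without doxycycline and 36.5 ± 27.1% with it (SD, n = 3 each), between 10.7% in dox replicate 3 (Wilson 95% interval 9.00 to 12.7) and 64.7% in dox replicate 2 (62.9 to 66.4). VDAC1 made up 38.4 ± 4.35% and 22.6 ± 14.3% of porin tags, a fall where the transgene line had a rise. The difference was -23.2 to -8.92 percentage points with 1 library left out. The mean shares of VDAC2 and VDAC3 were higher with doxycycline. The VDAC1 groups overlapped, at 33.8 to 42.4% without doxycycline and 8.68 to 37.2% with it. The spread between libraries was thus several times the counting error.

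**Figure D4:**
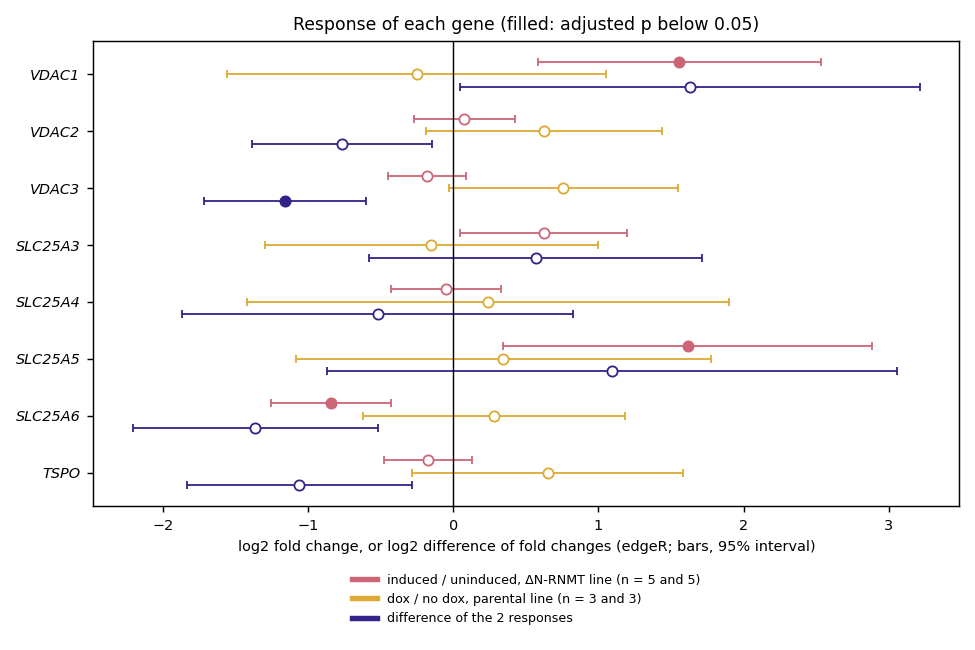
Log2 fold change of each gene with its 95% interval (horizontal axis) for induced over uninduced cells of the transgene line (n = 5 and 5), for doxycycline over none in the parental line (n = 3 and 3), and for the difference of these responses. The difference comes from a joint fit of all libraries with its own scaling. Filled points passed at an adjusted P below 0.05 by edgeR. VDAC1, SLC25A5 and SLC25A6 are filled for the transgene line, none for the parental line, and VDAC3 alone for the difference.

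Whether the lines responded differently was tested with an interaction of line and doxycycline over all 16 libraries. These were scaled together, so the difference need not equal the gap between the responses fitted in each line alone. Over all genes tested its median was -0.09, and 0.49 with total counts alone. Of the 8 genes, 1 passed, where 2.98% of 12265 genes did (0.775% higher and 2.2% lower), a count that went from 365 genes to between 0 and 2290 when 1 library was left out. This was VDAC3, whose log2 response was lower by 1.16 in the transgene line (standard error 0.26, 95% interval of the difference -1.72 to -0.60, adjusted P = 0.0408 in the edgeR quasi-likelihood fit, Benjamini-Hochberg adjusted). Its own responses, -0.18 in the transgene line and 0.76 in parental cells, did not pass. The call held in 4 of 16 fits that left out 1 library (those without uninduced replicate 5, induced replicate 2, no-dox replicate 3 or dox replicate 2) and was lost without any of the other 12 (adjusted P by edgeR between 0.0566 and 0.147) and, among processing settings, with total counts alone (-0.58, adjusted P = 0.169), no filter, filterByExpr and the replicate block (adjusted P = 0.205, 0.0762 and 0.0654 by edgeR).

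For the genes called in the transgene line the difference itself did not pass. It was 1.63 for VDAC1 (95% interval 0.05 to 3.21, adjusted P = 0.180 by edgeR), 1.09 for SLC25A5 (-0.87 to 3.06, adjusted P = 0.465 by edgeR) and -1.36 for SLC25A6 (-2.21 to -0.52, adjusted P = 0.0632 by edgeR). DESeq2's Wald test called the difference for SLC25A6 at -1.29 (adjusted P = 0.0160). TSPO (-1.06) and VDAC2 (-0.77) did not pass either, and VDAC2 did with GC offsets, at -1.02.

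The genes that work beside the 8 were taken from fixed lists, and the values below are for the transgene line, with levels as mean ± SD over 5 libraries a group. The genes named from these lists had adjusted P values between 0.0175 and 0.0478 by edgeR with Benjamini-Hochberg adjustment. All but MTX3 kept their direction under each scaling tried (DESeq2 size factors, total counts alone, GC offsets), and MTX3 had -0.06 with GC offsets. Of the 38 genes that the naming rule takes, 35 still passed with DESeq2 size factors, 32 with total counts alone and 29 with GC offsets. With 1 surrogate variable in the fit none of them passed. Each list's counts are to be read beside the 20% of all tested genes that were higher and the 19.8% that were lower.

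Other carriers of adenine nucleotides moved in both directions, as the translocases did: of 6 tested, 2 rose and 2 fell, with a median log2 fold change of -0.29. SLC25A24, an ATP-Mg/phosphate carrier, rose from 20.1 ± 8.64 to 52.2 ± 17.2 CPM (SD, n = 5 each; log2 fold change 1.37). SLC25A42, a coenzyme A and adenine nucleotide carrier, rose by 1.05 on the log2 scale. SLC25A23, a paralog of SLC25A24, fell from 126 ± 26.8 to 75.6 ± 19.6 CPM (SD, n = 5 each; log2 fold change -0.74), and SLC25A41, another paralog, fell by 0.70. Of the 32 further SLC25 carriers tested, 4 rose and 12 fell. The largest rises were those of SLC25A43 (1.70), SLC25A30 (1.53) and SLC25A33, a pyrimidine nucleotide carrier (from 8.80 ± 5.41 to 25.0 ± 9.04 CPM; SD, n = 5 each). Those that fell included SLC25A39 (-0.99), a glutathione carrier, and SLC25A45 (-0.93). The split of this list moved with scaling, to 8 higher and 6 lower with total counts alone and 2 higher and 14 lower with GC offsets.

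Enzymes and factors that bind VDAC or the translocases, or use their nucleotides at the membrane, gave 1 rise and 4 falls among 9 tested, although their median log2 fold change was 0.29. AK4, a matrix adenylate kinase, rose from 6.96 ± 4.24 to 13.8 ± 2.65 CPM. HK1, the hexokinase that docks on VDAC, fell from 349 ± 71.3 to 209 ± 62.3 CPM (SD, n = 5 each; log2 fold change -0.74). SPG7, a subunit of an inner membrane protease, fell by 0.83. With total counts alone the list gave 3 higher and 2 lower, and with GC offsets none higher and 3 lower.

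In the BCL2 family, whose members act at the outer membrane and some of which bind VDAC, 5 of 15 tested rose and 3 fell, with a median log2 fold change of -0.02. The genes that rose included both guards against apoptosis and a promoter of it. MCL1, which holds effectors back, rose from 119 ± 50.2 to 258 ± 43.5 CPM (SD, n = 5 each; log2 fold change 1.11), and BCL2L11, which activates them, rose by 0.90. BCL2L2, another guard, was low, at 0.864 ± 0.292 and 5.82 ± 3.39 CPM (log2 fold change 2.72), and overlaps the readthrough gene BCL2L2-PABPN1, so its tags are uncertain. Among those that fell, BAK1 and BOK are pore-forming effectors and BCL2L1 is a guard. BAK1, the partner of VDAC2, fell from 50.7 ± 19.6 to 21.1 ± 4.44 CPM (log2 fold change -1.26), BOK fell by 1.12 and BCL2L1 by 0.84.

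Porins enter the outer membrane through the TOM complex and the SAM complex, and of 10 tested genes of this import route 3 rose and 1 fell. MTX2, of the SAM complex, rose from 11.0 ± 11.0 to 46.9 ± 22.5 CPM (log2 fold change 2.09), TOMM40, the TOM channel, rose by 1.14 and MTX3 by 0.52. SAMM50, the core of the SAM complex, fell by 0.71. The list gave 5 higher and none lower with total counts alone, and 2 higher and 3 lower with GC offsets.

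ATP synthase, which supplies the ATP that the translocases export, had 2 of 18 tested genes higher and 4 lower, with a median log2 fold change of 0.10. ATP5PD, of the peripheral stalk, rose from 62.9 ± 50.3 to 187 ± 88.0 CPM (SD, n = 5 each; log2 fold change 1.57), and ATP5MK, a small subunit of the membrane part, rose by 0.91. ATP5MC1, which encodes the c subunit of the rotor ring, fell from 1564 ± 558 to 751 ± 189 CPM (log2 fold change -1.06), ATP5MJ fell by 1.07 and ATP5ME by 0.74. ATP5MJ and ATP5ME, both small membrane subunits, were also called in the difference between lines, at -2.09 and -1.88 (adjusted P = 0.0424 and 0.0433 by edgeR). These were 2 of 18 tested, where 2.98% of all 12265 genes passed (2.2% lower). Without uninduced replicate 1, for example, 0 genes passed. In parental cells the log2 fold changes of ATP5MJ and ATP5ME were 0.77 and 0.89, and neither passed. With total counts alone the list had 5 higher and 3 lower.

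Of the partners of TSPO and of the steroid and cholesterol route it is placed in, 2 of 7 tested rose and 3 fell. FDXR, ferredoxin reductase, fell from 189 ± 52.4 to 97.2 ± 18.1 CPM (SD, n = 5 each; log2 fold change -0.96), with no overlap between groups, while its substrate ferredoxin, FDX1, rose by 0.86. STARD3, a cholesterol transfer protein, fell by 0.91 and ATAD3A by 0.98, and PRKAR1A rose by 0.55. With GC offsets both rises were lost, at 0.42 for FDX1 and 0.03 for PRKAR1A, and the list gave none higher and 3 lower. Among the genes for calcium transfer between endoplasmic reticulum and mitochondria, 1 of 14 tested passed: HSPA9, the chaperone that links VDAC1 to the IP3 receptor, rose from 40.3 ± 10.7 to 76.9 ± 15.7 CPM (log2 fold change 0.93). With total counts alone 4 of these 14 were higher. In parental cells no gene of any of these lists passed the test by edgeR with doxycycline.

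Other genes followed the 8 closely over the 10 libraries of the transgene line. By Pearson correlation of log2 CPM, given as a description because the libraries share their group and GC content, the closest to VDAC1 were ANXA7 (r = 0.998) and KIF2C (0.997), and to SLC25A5 GAR1 (0.997) and MIPEP (0.995). The closest to SLC25A6 were MTCH1 (0.998), itself a member of the SLC25 family that fell by 0.82, and NNMT (0.993). For VDAC3 the closest were PCBD2 (0.965) and RPL32 (0.952), a ribosomal protein gene. The closest to SLC25A3 were SEPTIN8 (0.997) and KLHL12 (0.994), to VDAC2 NLGN2 (0.977), to TSPO MFAP5 (0.984) and SEPTIN9 (0.948), and to SLC25A4 ZBTB7B (0.924) after a gene that has no symbol. Among the 8 genes themselves VDAC1, SLC25A3 and SLC25A5 varied together, with r between 0.941 and 0.967, and SLC25A6 varied against each of them, with r between -0.953 and -0.842.

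**Figure D5:**
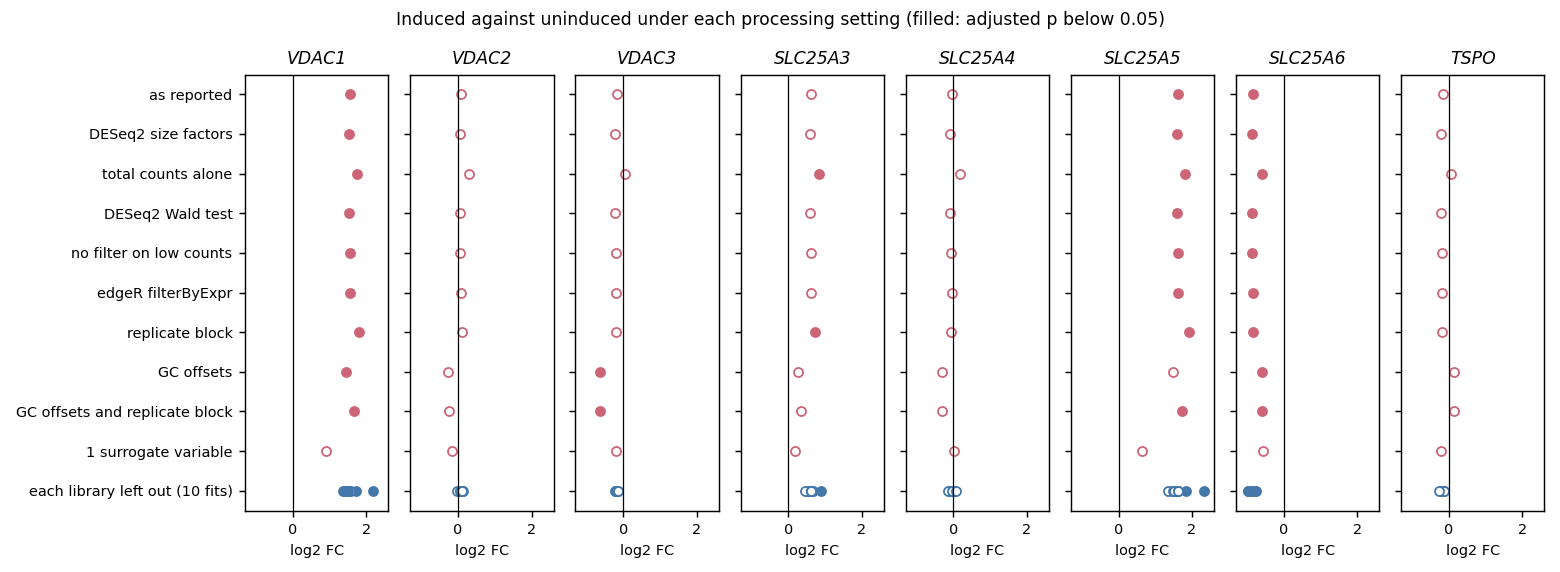
Log2 fold change (horizontal axes) of each gene for induced over uninduced cells under each processing setting (rows), with filled points where the adjusted P was below 0.05. The last row holds the 10 fits that each leave out 1 library. SLC25A6 is filled in every row but the one with 1 surrogate variable (-0.56), and VDAC3 is filled in the rows with GC offsets (-0.63 and -0.64).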

How the data were processed

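The authors deposited unnormalized tag counts per Ensembl gene from 16 QuantSeq REV libraries of cytoplasmic RNA, made with the Lexogen pipeline for GRCh38. The aligner, annotation, strand use and duplicate handling are not given in the sources used here. The paper calls the libraries biological replicates. Spike-in entries (92, all at 0) and 5 summary entries were left out. GENCODE 44 named 56104 of 60107 genes.

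The fits were made with edgeR 4.0.16 in R 4.3.3: TMM scaling, quasi-likelihood test, Benjamini-Hochberg adjustment over all genes with a base mean above 20 (13038, 9124 and 12265 genes for the transgene line, the parental line and their difference), calls at an adjusted P below 0.05. DESeq2 1.42.0, sva 3.50.0 and Python 3.11.15 served alternatives and summaries. The paper tested differential expression with DESeq2 and gives no version of it. Intervals are 95% and use the t distribution of each fit, shares have Wilson intervals, and intervals of shares cover counting error only. Correlations used log2 CPM with a prior count of 2. GC offsets were lowess fits (span 0.5) of log2 CPM on exon GC content in each library. The code was tested on simulated data.

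Named beside the 8 genes were RNMT, the 3 largest rises and falls among called genes of each list, and the 2 genes most correlated with each of the 8. The genes and lists were chosen with earlier results of these data known. Some genes that this rule takes, and the start sequences of VDAC3 and TSPO, are not reported here.

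Alternatives were DESeq2's size factors and Wald test, total counts alone, no filter, filterByExpr, the replicate number as a block, GC offsets with and without the block, 1 surrogate variable, and each library left out.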

Additional observations from a re-analysis of the deposited data

Results flagged for a closer look

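VDAC1 in uninduced cells had 1 library far from the others: replicate 5, the highest of its group, at 141 CPM, where the other 4 libraries lay between 23.3 and 55.2. It was the 1 such library among 16 groups of 5 libraries looked at (8 genes in both groups of the transgene line). Chance alone gives about 1 in 20 groups. The same library had the lowest GC content of its group, 49.4%, and the highest SLC25A5 level, 595 CPM.

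The response of VDAC3 to doxycycline differed between the lines by -1.16 on the log2 scale, transgene line minus parental line (adjusted P = 0.0408 by edgeR's interaction test). The call was lost in 12 of 16 fits that left out 1 library, and with total counts alone, no filter, filterByExpr or the replicate block. Every induced library of the transgene line was below every uninduced one, as for 4.22% of all genes tested in that line. Every treated parental library was above every untreated one, as for 4.87% of all genes tested in the parental line. The lines were sequenced on different instruments, which cannot be told apart from line here. Their libraries also differed in the tags on no counted gene feature and in mitochondrial tags, and the part of this in the VDAC3 difference was not tested.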

How the results depend on the processing

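In the transgene line the number of calls changed with the covariates and libraries used. With 1 surrogate variable 1 gene passed, RNMT, and 0 of the 8 genes did: VDAC1 had 0.89, SLC25A5 0.63 and SLC25A6 -0.56, and VDAC2 (-0.17) and SLC25A4 (0.013) turned in sign. Standard errors fell too, from 0.45 to 0.22 for VDAC1, 0.58 to 0.19 for SLC25A5 and 0.19 to 0.17 for SLC25A6. Their adjusted P values by edgeR were 0.0654, 0.0704 and 0.0692. Leaving out 1 library gave 1869 to 7604 genes called (fewest without induced replicate 1, most without uninduced replicate 5) and 1 to 4 of the 8 genes, with log2 fold changes of 1.35 to 2.18 for VDAC1, -0.039 to 0.14 for VDAC2, 0.45 to 0.89 for SLC25A3, -0.15 to 0.061 for SLC25A4 and 1.34 to 2.33 for SLC25A5. GC offsets gave VDAC2 -0.26, VDAC3 -0.63 (passed), SLC25A5 1.48 (lost) and TSPO 0.14, and moved the share of calls that were higher from 50.2% to 32.2%. Total counts alone moved it to 74.2% and gave VDAC3 0.050, SLC25A3 0.83 (passed), SLC25A4 0.19 and TSPO 0.065. The causes were not tested.

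In the parental line DESeq2's Wald test called 1 gene, no filter 10, and leaving out 1 library 0 to 2. Over those fits the log2 fold change was -0.96 to 0.18 for VDAC1, -0.44 to 0.69 for SLC25A3, -0.21 to 0.33 for SLC25A4, -0.52 to 0.87 for SLC25A5 and -0.029 to 0.57 for SLC25A6.

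For the difference between lines 236 genes passed with DESeq2's size factors, 1489 with its Wald test, 150 with no filter, 3 with filterByExpr, 692 with GC offsets and 0 to 2290 with 1 library left out. Of the 8 genes, 0 passed with total counts alone, no filter or filterByExpr, 2 with the Wald test or GC offsets, and 0 to 3 with 1 library left out. VDAC3 had -0.58 with total counts alone, -0.99 with no filter and -1.01 with filterByExpr, none passing, VDAC2 -1.02 with GC offsets and SLC25A6 -1.29 with the Wald test, both passing, and SLC25A4 turned to 0.055 with total counts alone. With 1 library left out the difference was 1.18 to 2.48 for VDAC1, -0.86 to -0.47 for VDAC2, -1.25 to -0.89 for VDAC3, -0.054 to 1.08 for SLC25A3, -0.95 to 0.18 for SLC25A4, 0.64 to 2.10 for SLC25A5, -1.51 to -1.07 for SLC25A6 and -1.18 to -0.68 for TSPO.

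Same-numbered libraries did not deviate together (mean correlation 0.0260 for the transgene line, -0.0598 for the parental one), so the numbers were not taken to pair them. With the replicate number as a block SLC25A3 had 0.74 for the transgene line, where it passed, and 0.079 for parental cells, and with GC offsets and the block VDAC2 had -0.25, VDAC3 -0.64 (passed), TSPO 0.14 and, in the parental line, SLC25A3 0.15. For the difference between lines the block left 222 genes and 0 of the 8 passing, with VDAC3 at -1.16. In the transgene line SLC25A5, lost with GC offsets alone, had 1.73 and passed with GC offsets and the block (adjusted P = 0.0329 by edgeR), which made 4 of the 8 genes. The block changed no other call of the 8 genes.

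Depth limits SLC25A4 in the parental line: it had 1 tag in the no-dox replicate 1, and it was tested in only 2 of the 6 parental fits that left out 1 library.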
